A study of Mus musculus with 21 samples.

Results

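Interferon-stimulated genes are switched on when interferons bind their receptors, and many of their products act against viruses. The 9 genes described here, Ifit1, Ifit2, Ifit3, Isg15, Irf7, Stat2, Bst2, Usp18 and Oasl2, were taken by symbol from both deposited tables of expression. They were 9 of 23614 genes in the table of mice with both drivers and 9 of 22945 genes in the table of mice with the gg8 driver alone. Levels were given as TPM (read numbers divided by transcript length and scaled to one total per library), so levels of different genes can be compared within a table.

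The libraries came from cells sorted out of the main olfactory epithelium, the tissue of the mouse nose that holds the olfactory sensory neurons (OSN). Each mouse carried a tetracycline-responsive transgene that encoded mCherry together with either HyperTRIBE alone (tetO-HyperTRIBE-mCherry, HT) or Mex3a joined to HyperTRIBE (tetO-Mex3a-HyperTRIBE-mCherry, MexHT). Mex3a encodes a protein that binds RNA. HyperTRIBE is the editing domain of an ADAR enzyme, which changes adenosines of double-stranded RNA into inosines. The transgene was driven by gg8-tTA, active in immature OSN, or by gg8-tTA plus OMP-tTA to reach mature OSN as well (gg8+OMP). mCherry-positive cells are called OSN below, and the mCherry-negative cells of the same mouse, which carry the transgenes too, were its internal control. The gg8+OMP mice gave 6 MexHT OSN, 3 HT OSN, 5 MexHT mCherry-negative and 3 HT mCherry-negative libraries. With gg8 alone there were 2 MexHT OSN and 2 MexHT mCherry-negative libraries. No mouse without HyperTRIBE was among the libraries used here, and the age of the mice is not given in the sources used here. Since the date in the library names differs between the drivers and is the same within each, driver and date cannot be told apart.

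Type I interferons bind the receptor of Ifnar1 and Ifnar2, and the kinases Jak1 and Tyk2 on that receptor then phosphorylate Stat2. Stat2 and Irf9 enter a complex that binds a DNA element, the interferon-stimulated response element (ISRE), in front of its target genes. Double-stranded RNA in the cytoplasm is a trigger of interferon production, and editing by ADAR is known to keep a cell's own RNA from being sensed in this way. Macrophages and other myeloid cells, which live among the epithelial cells of the nose, express many of these genes at rest.

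The recovered depth was 7529648 to 12600530 counts per gg8+OMP library and 10421511 to 15358109 per gg8 library. Mex3a, which the MexHT construct carries, checked the labels: it ranged from 328 to 1271 TPM in MexHT OSN and from 24.0 to 61.5 TPM in HT OSN (limma log2 difference 3.68, SE 0.45, adjusted p 0.000406). In 14 of 21 libraries both Xist and Y-linked transcripts (4 genes, averaged) reached 1 TPM, although the labels speak of one mouse per replicate. Whether a library holds cells of more than 1 mouse was not tested, and mice are counted below as the labels give them. Of the HT OSN libraries 2 of 3 had only the Y-linked transcripts, while all 6 MexHT OSN libraries had Xist. Summed over 10 markers, mature OSN genes stood at 8016 to 12597 TPM in HT OSN and at 1879 to 5869 TPM in MexHT OSN. The mCherry-negative libraries were not free of OSN transcripts (394 to 10034 TPM for the same 10 markers with both drivers). They held 6226 to 15596 TPM of 10 granulocyte and monocyte markers, against 160 to 457 TPM in OSN. Of 6 connective tissue markers they held 7889 to 23740 TPM, against 83.9 to 320 TPM in OSN. In bulk samples, fewer cells of a type and less RNA per cell cannot be told apart.

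The stretch of DNA in front of each start site was examined first, because the ISRE is the element through which Stat2 and Irf9 act. Promoter windows from 250 bases before to 50 bases after the start were taken from RefSeq (build GRCm38.p6, the same assembly as the mm10 named in the submitters' processing notes). They matched 8 of the 9 genes by symbol, with 2 start sites for Ifit2, and the missing entry was that of Usp18. The following stretches run 5' to 3' on the strand of the gene, from base -160 to base -51 relative to the start (base -250 to base -141 for Stat2), and capitals mark each match to the core of the ISRE, a pair of GAAA with any 2 bases between them, on either strand. The 5 genes with a match are shown, and Ifit2 (its first start site) because it changed together with Ifit1 in the first comparison below while its window has no match.
Isg15 (chr4:156200869-156200978, minus strand): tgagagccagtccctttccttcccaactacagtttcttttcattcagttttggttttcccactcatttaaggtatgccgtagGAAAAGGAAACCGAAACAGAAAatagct
Bst2 (chr8:71537523-71537632, minus strand): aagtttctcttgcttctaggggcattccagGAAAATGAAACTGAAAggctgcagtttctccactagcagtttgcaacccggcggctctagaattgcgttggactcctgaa
Ifit1 (chr19:34640729-34640838, plus strand): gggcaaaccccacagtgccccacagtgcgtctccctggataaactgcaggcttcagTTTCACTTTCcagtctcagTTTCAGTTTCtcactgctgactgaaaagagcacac
Ifit3 (chr19:34583369-34583478, plus strand): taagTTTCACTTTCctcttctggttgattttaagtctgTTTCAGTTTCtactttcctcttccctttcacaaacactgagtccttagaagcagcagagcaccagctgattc
Stat2 (chr10:128270248-128270357, plus strand): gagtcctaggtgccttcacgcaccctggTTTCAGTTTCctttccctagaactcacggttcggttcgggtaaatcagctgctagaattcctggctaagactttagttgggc
Ifit2 (chr19:34550534-34550643, plus strand): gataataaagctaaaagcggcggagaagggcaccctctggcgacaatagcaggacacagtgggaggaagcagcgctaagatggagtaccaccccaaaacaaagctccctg
Isg15 held 3 overlapping matches that begin at bases -78, -72 and -66, and Bst2 held 2 overlapping matches that begin at bases -130 and -124. Ifit1 had 2 separate matches on the opposite strand, beginning at bases -104 and -85, and Ifit3 likewise had 2, beginning at bases -156 and -122. Stat2 had 1 match at base -222. No match lay in the windows of Ifit2 (both starts), Irf7 or Oasl2, which says only that these letters are not in these windows. The stretch shown for Ifit3 and most of that for Ifit2 lie inside the span annotated for the gene. The starts used for Irf7 and, by a few bases, for Oasl2 also lie inside the annotated spans of these genes. The DNA in front of the outer 5' ends of Ifit2 and Irf7 was thus scanned only in part, and that of Ifit3 was not scanned. In all, 5 of 8 genes (62.5%) had a match, where 1079 of 27025 genes with a window (3.99%) and 3.44% of all 32851 windows had one. A second element, the gamma-activated site, has the core TTCNNNGAA. This core was found in Bst2 at base -136, where it overlaps the first ISRE match, and in the first window of Ifit2 at base -241, thus in 2 of 8 genes (25%), where 9.55% of all genes had one. Such matches describe the sequence and were not tested for function.

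**Figure D1:**
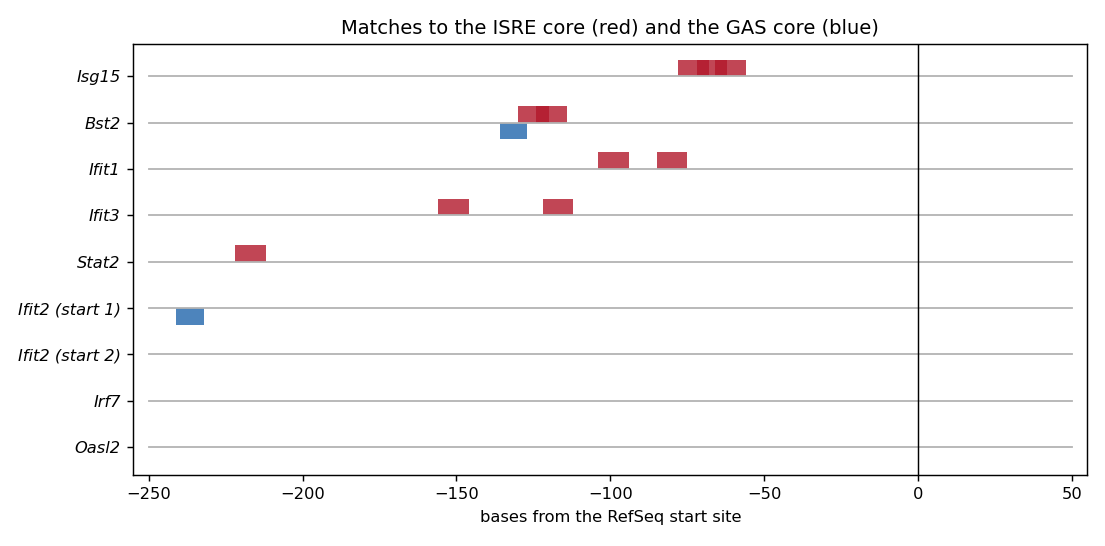
Position of each match to the ISRE core (red, above the line) and to the core of the gamma-activated site (blue, below the line) in the 9 promoter windows of 8 genes, in bases from the RefSeq start site (0). Isg15, Bst2, Ifit1, Ifit3 and Stat2 have red boxes, and the windows of Ifit2, Irf7 and Oasl2 have none.

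The 3 Ifit genes lie close together on chromosome 19 (Ifit2 at 34550550-34576534, Ifit3 at 34583119-34588982 and Ifit1 at 34640889-34650009 in GRCm38.p6). They encode proteins that bind viral RNA and hold back its translation. The others are spread over the genome: Isg15 on chromosome 4 (156199424-156200818), Oasl2 on 5 (114896926-114912245), Usp18 on 6 (121245906-121270917), Irf7 on 7 (141263183-141266499), Bst2 on 8 (71534255-71537472) and Stat2 on 10 (128270498-128292853). All 9 are protein-coding genes in the RefSeq annotation.

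All 9 genes were expressed at low to moderate levels, and the order of their levels differed between the fractions. In MexHT OSN, Stat2 had the highest level at 30.0 TPM ± 4.06 (SD, n = 6), and its lowest library (25.6 TPM) was above the highest library of every other gene. Ifit2 (12.5 ± 4.44) and Ifit1 (11.6 ± 4.64) followed and overlapped each other. Irf7, Isg15 and Bst2 had means of 6.91, 6.78 and 6.32 TPM, whose ranges also overlapped, and Usp18 (4.87), Oasl2 (3.14) and Ifit3 (1.25) were the lowest. HT OSN began instead with Ifit2 (35.0 ± 3.17, n = 3) and Ifit1 (30.8 ± 4.41), and Stat2 stood at 23.4 ± 4.99. In MexHT mCherry-negative cells Irf7 was the most abundant at 28.1 ± 6.02 TPM (n = 5), within the spread of Ifit2 (20.3 ± 7.99). Ifit3 was the lowest in every group, with 2 to 42 counts in a gg8+OMP library, so its values are the least precise. Ifit3 also has a near-identical neighbouring copy (Ifit3b), and Ifit1 has related neighbours (the Ifit1-like genes). Reads may have been split between such genes, so the levels of Ifit3 and Ifit1 are uncertain. All 9 genes passed the filter of a mean of at least 1 TPM in every comparison.

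**Figure D2:**
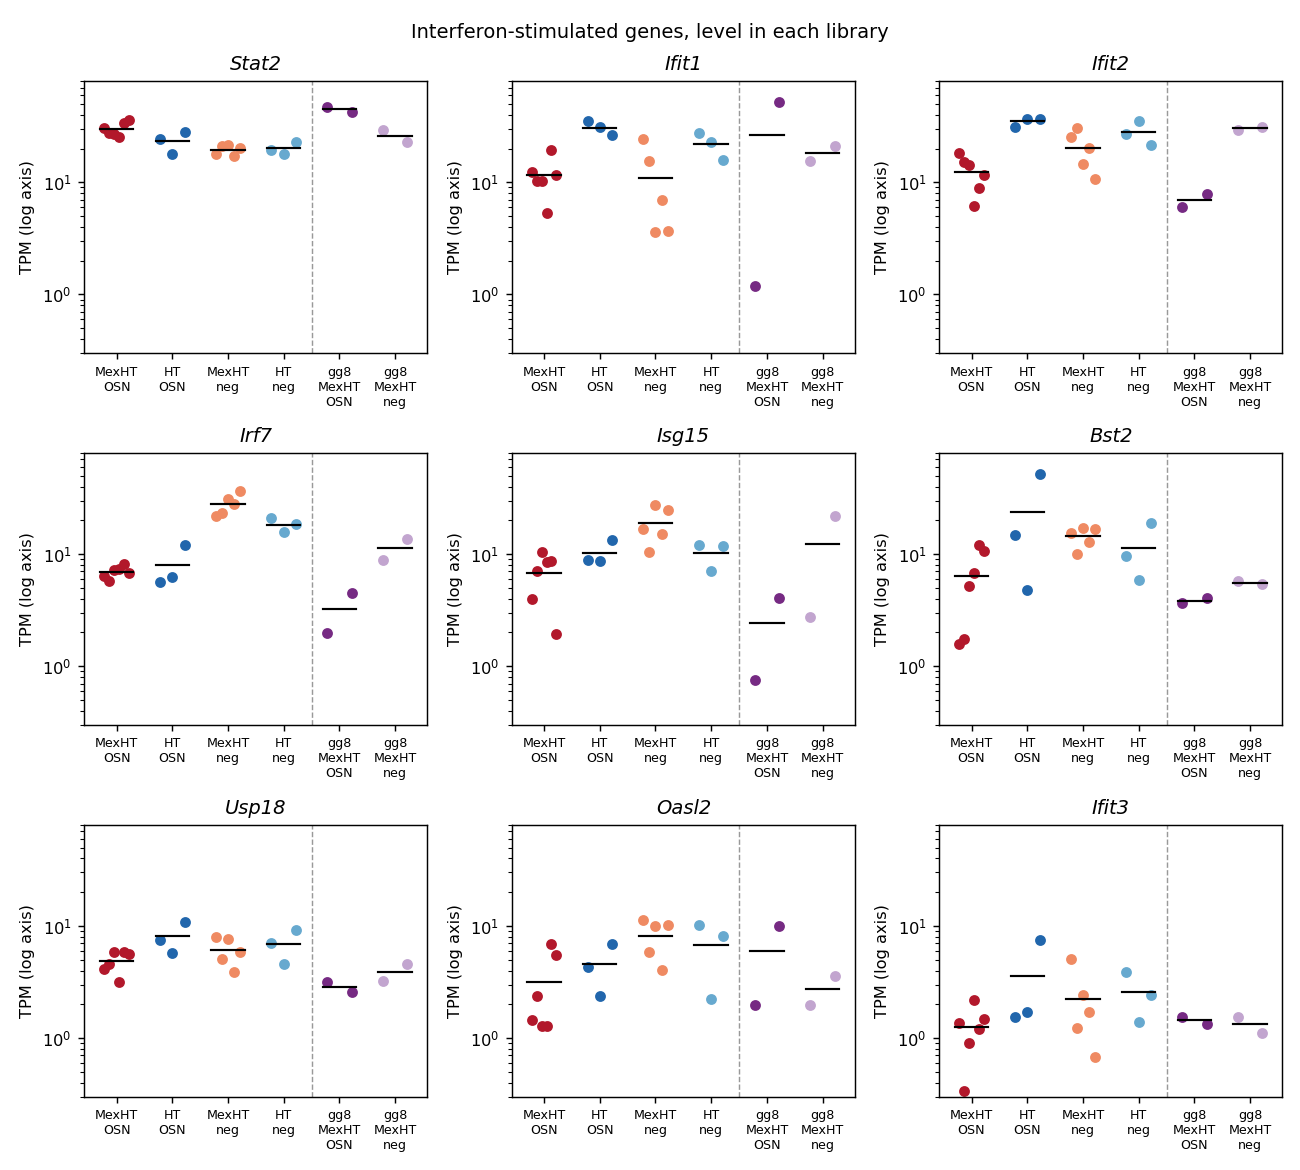
Level of each of the 9 genes (TPM, log axis) in all 21 libraries, by group, with a dot per library and a black line at the group mean; the dashed line separates the gg8 table, which was scaled apart. The 3 HT OSN libraries lie above all 6 MexHT OSN libraries for Ifit1 and Ifit2, and Irf7 is lower in OSN than in mCherry-negative libraries.

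The first comparison set MexHT OSN against HT OSN and asked what Mex3a adds when both groups of neurons make the editing domain. Ifit1 and Ifit2 fell in MexHT OSN, and the other 7 genes did not pass the test. Ifit1 stood at 12.4, 10.2, 10.3, 5.31, 19.6 and 11.7 TPM in the 6 MexHT OSN libraries and at 35.0, 31.2 and 26.2 TPM in the 3 HT OSN libraries. Every MexHT library was below every HT library, and the mean was 2.66-fold lower on the log2(TPM + 1) scale of all folds given here (log2 difference -1.41, SE 0.30, limma adjusted p 0.00546). Ifit2 had 18.3, 15.3, 14.4, 6.18, 8.90 and 11.6 TPM in MexHT OSN and 31.3, 36.9 and 36.8 TPM in HT OSN. The groups again did not overlap, with a 2.81-fold lower mean in MexHT OSN (log2 difference -1.49, SE 0.28, limma adjusted p 0.00319). Among all 16067 genes tested, 16.8% were lower and 19.9% were higher at the same threshold, against 2 of the 9 genes lower and 0 higher. The signs were negative for 8 of 9 genes, with a median log2 difference of -0.65, where the median of all genes was 0.03.

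The remaining effectors had lower means in MexHT OSN but overlapping libraries. Bst2, which tethers budding virus particles to the cell surface, had 1.58 to 12 TPM in MexHT OSN and 14.7, 4.83 and 51.4 TPM in HT OSN (log2 difference -1.47, limma adjusted p 0.128). Its SD in HT OSN (24.5 TPM) exceeded the mean (23.6 TPM), because 1 library stood at 51.4 TPM, and the difference was -0.65 without that library (HT OSN replicate 3). Without HT OSN replicate 2, the lowest of the 3, Bst2 passed (-2.23, limma adjusted p 0.0447). Ifit3 stood at 0.337 to 2.20 TPM in MexHT OSN and at 1.55, 1.71 and 7.52 TPM in HT OSN (-0.84, adjusted p 0.135), with its highest value in the same library as Bst2. For Oasl2, a relative of the 2'-5' oligoadenylate synthetases, the difference was -0.53 (adjusted p 0.397).

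Isg15 encodes a ubiquitin-like protein that is attached to other proteins, and Usp18 encodes the protease that removes it and also blocks signalling at the interferon receptor. Isg15 had 1.95 to 10.5 TPM in MexHT OSN and 8.93, 8.66 and 13.3 TPM in HT OSN (log2 difference -0.65, limma adjusted p 0.229). Usp18 had 3.16 to 5.91 TPM against 7.46, 5.78 and 10.9 TPM (-0.61, adjusted p 0.0776). Among the transcription factors, Irf7, which amplifies the production of interferon, differed by -0.12 (adjusted p 0.709), and Stat2 was the gene with a positive sign (0.36, adjusted p 0.110). A p that misses the threshold does not show that levels were equal.

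**Figure D3:**
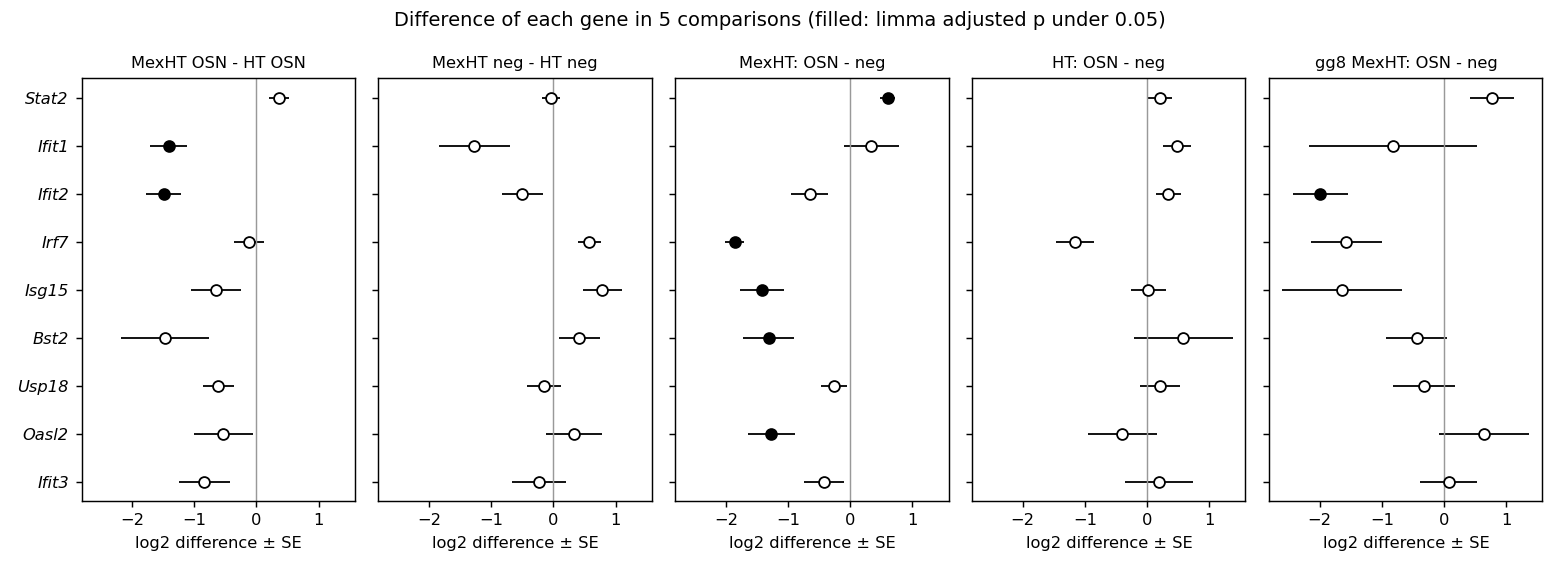
Log2 difference ± SE of each gene in the 5 comparisons of groups, from limma on log2(TPM + 1); filled dots had an adjusted p under 0.05. Ifit1 and Ifit2 are filled to the left of 0 in the first panel, no dot is filled in the second, and Irf7, Isg15, Bst2 and Oasl2 are filled to the left and Stat2 to the right in the third.

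The construct moved together with other properties of these libraries. The summed level of the 10 macrophage and microglia markers was 211 to 419 TPM in MexHT OSN and 1253, 1013 and 4503 TPM in HT OSN, without overlap. All 10 of them were called lower in MexHT OSN (median log2 difference -2.59), none was at 0, and Csf1r, the receptor of the macrophage growth factor, had a median of 32.0 TPM in MexHT OSN and 154 TPM in HT OSN. Immature OSN markers summed to 4389 to 5309 TPM in MexHT OSN and to 2410 to 2824 TPM in HT OSN, also without overlap (7 of 8 called higher, median 1.06), and 9 of 10 mature OSN markers were called lower (median -1.53). The part of these cell types in the differences of Ifit1 and Ifit2 was not tested. Without HT OSN replicate 3, the library with 4503 TPM of macrophage markers, the log2 differences were -1.52 for Ifit1 (limma adjusted p 0.013) and -1.45 for Ifit2 (0.0132). With the Xist level as a covariate neither gene passed in limma (Ifit1 -1.45, SE 0.54, adjusted p 0.174, and Ifit2 -1.43, SE 0.51, adjusted p 0.159). Xist was at 60.3 TPM in HT OSN replicate 2, which also had Y-linked transcripts (mean 27.4 TPM). That library had 31.2 TPM of Ifit1 and 36.9 TPM of Ifit2. The Xist level nearly followed the construct in these libraries, and the part of sex in the differences of Ifit1 and Ifit2 was not tested. With that covariate 329 of all genes were called, against 5907 without it, and Mex3a itself had an adjusted p of 0.0534.

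**Figure D4:**
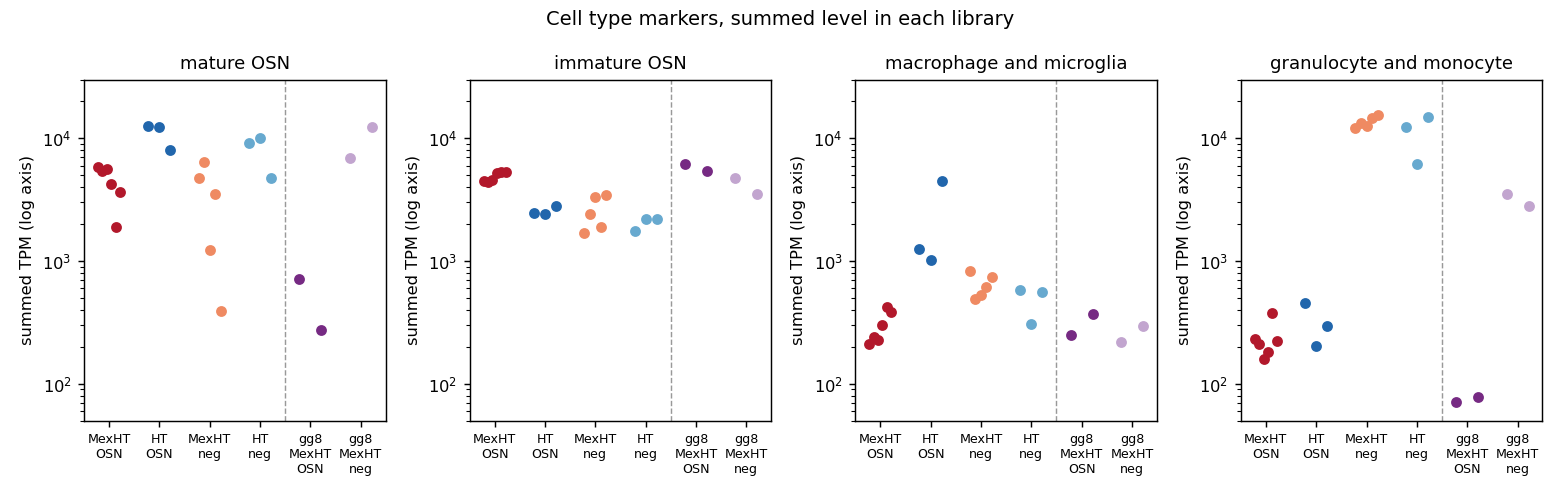
Summed level of 4 lists of cell type markers in each library (TPM, log axis; 10 mature OSN, 8 immature OSN, 10 macrophage and microglia, and 10 granulocyte and monocyte markers), with a dot per library. Macrophage markers lie between 1013 and 4503 TPM in HT OSN, above all other groups, and granulocyte markers lie at 2829 TPM or more in all mCherry-negative libraries.

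The constructs were then compared in mCherry-negative cells, as the background. None of the 9 genes was called by limma, nor was any of the 16860 genes tested (0%), although 3465 genes and 2 of the 9 had an unadjusted p under 0.05. Voom on recovered counts also called 0 of the 9 and 0 of all genes. The 2 were Irf7 and Isg15. Irf7 stood at 21.9, 23.2, 30.8, 28.0 and 36.7 TPM in MexHT and at 20.9, 15.6 and 18.5 TPM in HT cells. All MexHT libraries were thus above all HT libraries (log2 difference 0.58, SE 0.19, adjusted p 0.218). Isg15 had 10.4 to 27.5 TPM in MexHT and 12, 7.01 and 11.7 TPM in HT cells (0.79, adjusted p 0.231). Ifit1 ranged from 3.64 to 24.4 TPM in MexHT cells, against 27.7, 23 and 15.8 TPM in HT cells (log2 difference -1.27, SE 0.57, adjusted p 0.251), and Ifit2 differed by -0.50 (adjusted p 0.388). Signs were positive for 4 genes and negative for 5.

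Whether the construct difference itself differed between OSN and mCherry-negative cells was tested as an interaction over the 17 gg8+OMP libraries. No gene of the 9 passed in limma or in voom, while 4 had an unadjusted p under 0.05 (Bst2, Ifit2, Irf7 and Isg15). Signs were negative for 8 of 9, with a median of -0.70 against 0.10 over all genes, and 5.37% of all genes were called lower. Of all calls 56.8% were higher, against 40.3% with median-of-ratios scaling and 36.9% in voom. For Ifit1 the interaction was -0.14 (SE 0.67, adjusted p 0.916), so that its lower level in MexHT OSN was not shown to differ from that in the mCherry-negative cells. For Ifit2 it was -0.99 (SE 0.45, adjusted p 0.165). With the mouse as a block, Isg15 (-1.18, adjusted p 0.0398) and Bst2 (-2.07, adjusted p 0.0265) passed as lower, in a fit that called 2603 of all genes against 2086 without the block.

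OSN and mCherry-negative cells of MexHT mice were compared next. Stat2 rose, while Irf7, Isg15, Bst2 and Oasl2 fell in OSN. Irf7 had 6.34, 5.79, 7.19, 7.32, 8.09 and 6.73 TPM in OSN and 21.9, 23.2, 30.8, 28.0 and 36.7 TPM in mCherry-negative cells. The fractions did not overlap, and the mean was 3.64-fold lower in OSN (log2 difference -1.86, SE 0.15, limma adjusted p 5.91e-07). In the 5 mice with both fractions the difference ran from -2.05 to -1.64 and was thus lower in all 5. Stat2 had 30.5, 27.5, 27.0, 25.6, 33.9 and 35.7 TPM in OSN and 17.8, 21.0, 21.5, 17 and 20.1 TPM in mCherry-negative cells. Each OSN library was above each mCherry-negative library, by 1.51-fold (0.60, SE 0.12, adjusted p 0.000999). Among all 16522 genes, 35.8% were higher and 27.6% lower at this threshold, against 1 and 4 of the 9. The median gene was 0.16 higher in OSN on the log2 scale, and 0.03 with median-of-ratios scaling, under which the same signs held for all 9 genes and Ifit2 passed too (-0.78, adjusted p 0.0358).

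The 3 effectors and modifiers that fell did so with some overlap between libraries. Isg15 had 4, 7.12, 10.5, 8.47, 8.66 and 1.95 TPM in OSN and 16.7, 10.4, 27.5, 15.1 and 24.9 TPM in mCherry-negative cells (log2 difference -1.42, SE 0.36, limma adjusted p 0.00386). Bst2 had 1.58 to 12 TPM in OSN and 9.96 to 17.1 TPM in mCherry-negative cells (-1.31, adjusted p 0.0147). Oasl2 had 1.27 to 6.96 TPM and 4.01 to 11.2 TPM (-1.27, adjusted p 0.0113). Each of these 3 genes was lower in OSN in 5 of 5 mice. The Ifit genes and Usp18 did not pass: Ifit1 differed by 0.34 (adjusted p 0.523), higher in 2 and lower in 3 of 5 mice, Ifit2 by -0.65 (0.0752), Ifit3 by -0.42 (0.272) and Usp18 by -0.26 (0.297). Ifit2 was lower in OSN in 5 of 5 mice and passed with the mouse as a block (adjusted p 0.0362), and also without MexHT OSN replicate 1 (0.0457) or MexHT mCherry-negative replicate 5 (0.0226). Granulocyte and monocyte markers moved with the fraction (12023 to 15596 TPM in mCherry-negative cells and 160 to 374 TPM in OSN, 10 of 10 called lower, none at 0). So did connective tissue markers (11317 to 23740 TPM in mCherry-negative cells and 127 to 243 TPM in OSN, 6 of 6 called lower). Basal markers (5 of 5) and progenitor and cell cycle markers (5 of 7) were also called lower, and immature OSN markers (7 of 8) higher. The part of these cell types in the differences above was not tested.

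In HT mice none of the 9 genes passed between OSN and mCherry-negative cells in limma or voom, and 1 had an unadjusted p under 0.05. That gene was Irf7, with 5.60, 6.27 and 12.1 TPM in OSN and 20.9, 15.6 and 18.5 TPM in mCherry-negative cells. Its fractions did not overlap (log2 difference -1.16, SE 0.30, adjusted p 0.0524). Irf7 passed without HT OSN replicate 3 (-1.47, adjusted p 0.0179) or HT mCherry-negative replicate 2 (-1.27, 0.0481). With the mouse as a block, Irf7 passed as lower (adjusted p 0.0274) and Ifit1 as higher in OSN (0.48, SE 0.13, adjusted p 0.0453). Ifit1 was higher in OSN in 3 of 3 HT mice, by 0.33 to 0.70. Of all 17027 genes, 2.18% were called higher and 9.11% lower (19.3% of the calls higher, and 7.50% in voom). The HT mice had the opposite sign to the MexHT mice for Isg15 (0.02, but -0.06 with median-of-ratios scaling), Bst2 (0.58), Ifit2 (0.34), Ifit3 (0.19) and Usp18 (0.20), and no interaction passed without the block. Without HT OSN replicate 3, Isg15 (-0.16), Bst2 (-0.24), Ifit3 (-0.38) and Usp18 (-0.02) had the sign of the MexHT mice. HT OSN also carried more macrophage transcripts than HT mCherry-negative cells (7 of 10 markers called higher, median log2 difference 2.59), whose part was not tested.

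With the gg8 driver alone there were 2 mice. Ifit2 had 6.08 and 7.84 TPM in OSN and 29.3 and 31.4 TPM in mCherry-negative cells, 3.96-fold lower in OSN (log2 difference -1.99, SE 0.44, limma adjusted p 0.0449). It was the single gene of the 9 that passed, where 7.20% of 16490 genes were called lower and 1.12% higher. That call was lost with the mouse as a block (adjusted p 0.0522), with a pseudocount of 0.1 TPM (0.0559), without a filter (0.0517) and without OSN replicate 2 or either mCherry-negative library (0.101 to 0.476). Irf7 had 1.97 and 4.52 TPM in OSN and 8.88 and 13.7 TPM in mCherry-negative cells (-1.57, adjusted p 0.124). Stat2 had 47.2 and 42.0 TPM in OSN and 29.1 and 22.7 TPM in mCherry-negative cells (0.77, adjusted p 0.192). Both had the sign found in MexHT mice with both drivers. Ifit1 differed widely between the 2 OSN libraries, with 1.18 TPM (11 counts) in mouse 1 and 51.5 TPM (662 counts) in mouse 2, and stood at 15.5 and 21.0 TPM in the mCherry-negative libraries. Mex3a was at 460 and 1632 TPM and Xist at 0.441 and 159 TPM in the same OSN libraries. Macrophage markers summed to 251 and 371 TPM in the OSN and to 219 and 295 TPM in the mCherry-negative libraries. Granulocyte and monocyte markers stood at 70.6 and 78.4 TPM in OSN and at 3527 and 2829 TPM in mCherry-negative cells (9 of 10 called lower, median log2 difference -5.97). Connective tissue markers stood at 40.3 and 57.7 TPM in OSN and at 5278 and 5550 TPM in mCherry-negative cells (6 of 6 called lower, median -5.58). Mature OSN markers stood at 720 and 275 TPM in OSN and at 6904 and 12388 TPM in mCherry-negative cells (7 of 10 called lower, median -4.28). Their part in the difference of Ifit2 was not tested.

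The wider interferon pathway was followed in 143 other genes, set out in lists by role. Between MexHT OSN and HT OSN, 115 of them passed the filter, 61 were called lower and 1 higher, and the median log2 difference was -0.78. The background was 16.8% lower and 19.9% higher. All 10 macrophage markers were lower in the same comparison, as given above. Without HT OSN replicate 3 there were 43 lower and 1 higher, and with the Xist level as a covariate 1 gene was lower. Without the filter on low values 61 of 140 were lower and 1 higher. Of the interferons themselves, 1 of 11 passed the filter, the keratinocyte interferon Ifnk, named after its values were seen. It passed through HT OSN alone, at 0 to 1.47 TPM in MexHT OSN and 2.40 to 6.98 TPM in HT OSN, so its test is not given. Receptor genes were lower for 5 of 6. The strongest was Il10rb, the shared chain of the receptors for interleukin 10 and lambda interferons, at 13.5 to 28.9 TPM in MexHT OSN and 67.7 to 121 TPM in HT OSN (-2.27, adjusted p 0.000234).

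Signalling and sensing genes were divided in the same comparison, where 16.8% of all genes were lower and 19.9% higher. Of 12 genes of JAK-STAT signalling and its inhibitors, 1 was lower, the phosphatase gene Ptpn6 (-1.11, limma adjusted p 0.00694, named after its values were seen), and the list's median was 0.06. Of 13 genes of interferon induction 4 were lower, named after their values were seen: the transcription factors Irf8 (-2.09, adjusted p 0.00488) and Irf5 (-1.90, 0.00208), and the adaptors Tmem173 (-1.92, 0.0111) and Mavs (-0.44, 0.0377). The list of RNA sensors, which also holds Adar, was lower for 6 of 9, among them Tlr7, an endosomal receptor of single-stranded RNA, at 0.363 to 2.5 TPM in MexHT OSN and 5.58 to 28.2 TPM in HT OSN (-2.22, adjusted p 0.00561). In the conjugation of Isg15, 1 of 3 was lower, the activating enzyme Uba7, whose libraries overlapped (-1.30, adjusted p 0.0407, named after its values were seen).

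The antiviral effectors other than the 9 genes were lower for 26 and higher for 1 of 48. Mx2, a dynamin-like GTPase that blocks viruses, had 9 to 9.98 TPM in HT OSN and fell to between 0.596 and 1.87 TPM in MexHT OSN (log2 difference -2.49, SE 0.24, limma adjusted p 0.000135). It averaged 0.911 TPM in MexHT OSN and so passed the filter through HT OSN, and with no filter its adjusted p was 0.000220. Tor3a fell from a mean of 21.9 to 3.41 TPM (-2.39, adjusted p 0.000765). The gene that rose was Ifitm2, a membrane protein that hinders the entry of viruses, at 56.4 to 169 TPM in MexHT OSN and 23.1 to 55.9 TPM in HT OSN (1.36, SE 0.36, adjusted p 0.0147). The call of Ifitm2 was lost without HT OSN replicate 1 (0.0641) or replicate 2 (0.0725). Guanylate-binding proteins and immunity-related GTPases were lower for 5 of 8. Genes of antigen presentation were lower for 12 of 15, led by the peptide transporter Tap2 (-2.21, SE 0.30, adjusted p 0.000628). Of all genes tested, 16.8% were lower and 19.9% higher. The counts of these lists include genes that averaged under 1 TPM in MexHT OSN and passed the filter through HT OSN. Examples are Phf11b (0.861 against 3.90 TPM in HT OSN), Gbp9 (0.751 against 3.99 TPM) and Nlrc5 (0.809 against 2.75 TPM).

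**Figure D5:**
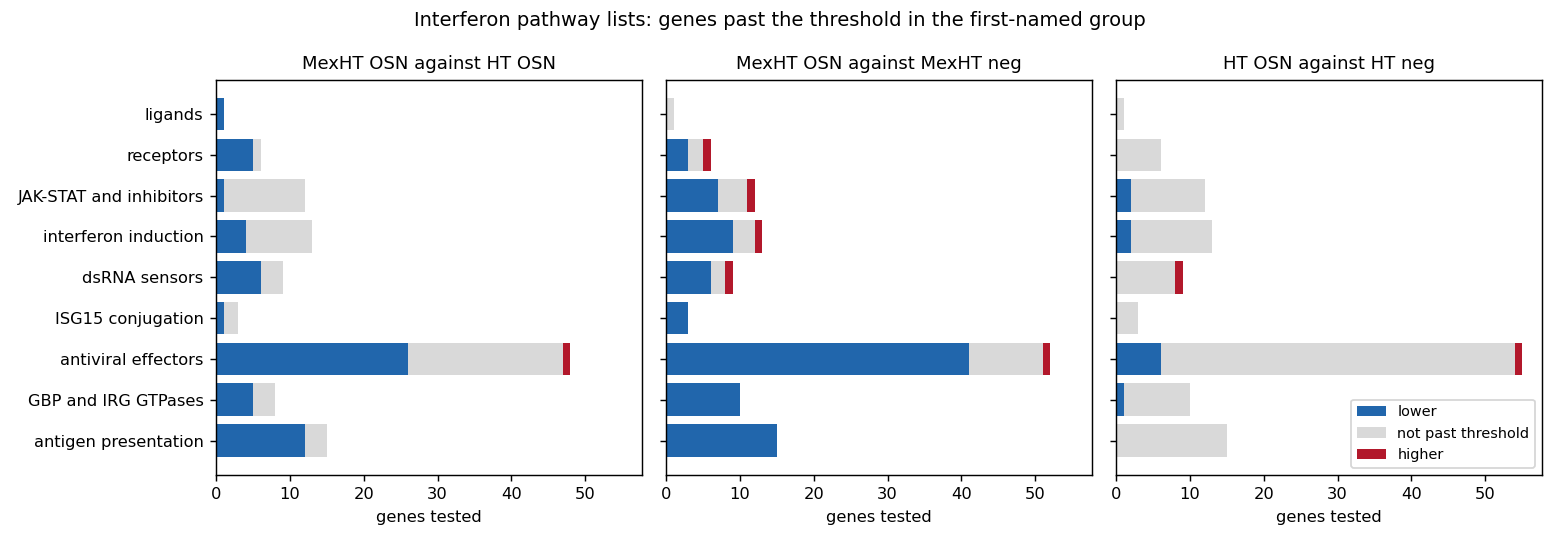
Number of genes tested in each of 9 lists of interferon pathway genes (bar length) and how many were called lower (blue) or higher (red) in the first-named group, in 3 comparisons. Blue makes up most of the bars of receptors, sensors, GTPases and antigen presentation in MexHT OSN against HT OSN, and little of any bar in HT OSN against HT mCherry-negative cells.

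In mCherry-negative cells 0 of 124 pathway genes were called between the constructs in limma and 0 in voom, with 18 at an unadjusted p under 0.05. The interaction was called lower for 38 and higher for 0 of 123 genes (voom 48 and 0; 1 had a positive sign at an unadjusted p under 0.05). Of all 16785 genes, limma called 5.37% lower and 7.05% higher. Where the higher group averaged 5 TPM or more, the largest values were those of the chemokine gene Cxcl10 (-2.63, SE 0.43, limma adjusted p 0.00180), Tap2 (-2.58, adjusted p 0.00125), Ifi204 (-2.58, 0.0137), and the interferon regulatory factors Irf8 (-2.39, 0.0214) and Irf5 (-2.31, 0.00282). All 10 macrophage markers had a lower interaction in the same fit (median -2.71). Without HT OSN replicate 3 the count was 25 and Irf8 was lost (adjusted p 0.0524). Without HT mCherry-negative replicate 2 the count was 20, and Irf8 (0.0733) and Ifi204 (0.0504) were lost.

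Between OSN and mCherry-negative cells, 94 of 121 pathway genes were lower and 5 higher in MexHT mice (median -1.21, where 27.6% of all genes were lower and 35.8% higher). With the same minimum level, the largest falls were those of Ifitm3 (log2 difference -3.91, limma adjusted p 8.75e-06), Sp100 (-3.47, 1.82e-07), Slfn2 (-3.43, 1.72e-08), and the immunoproteasome genes Psmb8 (-3.34, 2.65e-09) and Psmb9 (-3.10, 3.46e-07). Genes that rose in OSN included Ifnlr1, a chain of the lambda interferon receptor (1.18, adjusted p 0.000370), the adaptor Traf3 (0.75, 0.000412) and Pias1, an inhibitor of JAK-STAT signalling (0.31, 0.0120), which did not pass with median-of-ratios scaling (0.17, 0.108) or voom (0.15, 0.136). In HT mice 11 were lower and 2 higher of 124, near the 9.11% lower and 2.18% higher of all genes. With the mouse as a block 28 were lower and 5 higher, and calls over all 17027 genes went from 1923 to 4967. Ifitm3 (-3.47, adjusted p 0.00339), Samd9l (-2.43, 0.0142), Ifitm2 (-2.34, 0.0110), Socs3 (-2.27, 0.00536) and Irf1 (-2.05, 0.00625) led the falls. Samd9l was lost in voom (0.0554) and without HT OSN replicate 2 (0.0574) or HT mCherry-negative replicate 1 (0.0766), and Ifitm2 without the latter (0.0572). Parp14 rose (0.70, 0.0295), a call lost with all 4 groups in one fit (0.0826) and on leaving out any library but HT mCherry-negative replicate 2. In gg8 mice 12 were lower and 1 higher of 116, where 7.20% of all genes were lower and 1.12% higher, led by Psmb8 (-2.74, adjusted p 0.0283), Slfn2 (-2.50, 0.0324), Ube2l6 (-2.43, 0.0330), Isg20 (-2.43, 0.0356) and Sp100 (-2.39, 0.0385), and all 13 calls were lost without OSN replicate 2 or either mCherry-negative library, fits that called 0 of all genes.

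Adar, the RNA-editing enzyme that interferon induces, had the largest rise in OSN of the pathway genes called in each of the 3 comparisons of the fractions. It stood at 1033 to 1155 TPM in HT OSN and 51.0 to 57.2 TPM in HT mCherry-negative cells (log2 difference 4.27, SE 0.10, limma adjusted p 3.52e-05). It stood at 377 to 1198 TPM in MexHT OSN and 52.4 to 90.5 TPM in MexHT mCherry-negative cells (2.96, adjusted p 2.44e-06). In gg8 mice the rise was 4.16 (adjusted p 0.0159). HyperTRIBE is itself an ADAR domain and is expressed in the same cells, and whether its reads were counted under Adar was not tested. Adar was lower in MexHT OSN than in HT OSN, with overlapping libraries (log2 difference -1.03, SE 0.35, adjusted p 0.0399).

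The 9 genes did not share 1 pattern: over their 36 pairs the median of Pearson's r was 0.24 (-0.51 to 0.77) in the 17 gg8+OMP libraries with group means removed, and 0.38 (-0.55 to 0.82) in the 9 OSN libraries. Ifit1 and Ifit2 had an r of 0.64 in the 17 libraries and 0.82 in the 9 OSN libraries. Group means were not removed in the latter, so the difference between the constructs enters those values. Other genes were named by likeness to the mean standardised level of the 9. Over the 17 gg8+OMP libraries, out of 13330 genes, Pearson's r was 0.94 for Hexa and Icosl, 0.93 for Coro1b, 0.92 for Itgb5, and 0.91 for Mdfic, Ms4a6b, Manba and Sowahc. Over the 9 OSN libraries it was 0.99 for Vrk2 and Mmp2, 0.98 for Tmbim1, Mmp12, Mknk1, Pdgfc and Rhog, and 0.97 for Syngr2. Libraries of these sets share their construct, fraction and cell makeup, so the values are a description of the libraries.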

How the data were processed

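Per the labels' protocols, cells were freed with papain and sorted, RNA was extracted with TRIzol, and 10 ng went into a stranded total RNA kit. The authors deposited 2 tables of TPM values, one for the 17 gg8+OMP and one for the 4 gg8 libraries. The submitters' processing notes name FastQC, cutadapt, STAR, bedtools and mm10, and the counter, annotation and strand setting are not given in the sources used here. Each table had 27 symbols turned into dates, which held up to 0.221% of a library's TPM and were not tested.

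Each comparison was fitted within a table, on its own groups, with limma 3.58.1 in R 4.3.3 on log2(TPM + 1) (empirical Bayes with a mean trend), for genes averaging 1 TPM or more. P-values were two-sided, adjusted with the Benjamini-Hochberg method over all genes tested, with a threshold of 0.05. A fold change on the log2(TPM + 1) scale understates the change of low genes. The depth was recovered from the steps of the TPM values, which came out whole (within 0.01 counts) for 23614 of 23614 genes of the gg8+OMP table and (within 0.02 counts) for 22776 of 22809 of the gg8 table (99.86%, against 0.02% with a wrong factor). Limma's voom, with TMM factors, was run on these counts. The recovery and the fits were tested on simulated data.

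The members and lists were chosen with earlier results of these data known. Named genes are the 9 members, Mex3a, per comparison and direction the 5 most changed of the called list genes with at least 5 TPM in the higher group, and the 8 genes most alike in pattern. Usp41 and Rnf213 matched no symbol. The labels say that same-numbered fractions are 1 mouse, and their deviations from the group means correlated by -0.10 to 0.47 (gg8 0.02). Same-numbered MexHT and HT mCherry-negative libraries correlated too (0.33 to 0.38), though no label ties them. Alternatives were a pseudocount of 0.1 TPM, no filter, median-of-ratios scaling, voom, the block, all 4 groups in one fit, the Xist level as a covariate, and each library left out. P-values set each difference between groups against the spread between these libraries.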

Additional observations from a re-analysis of the deposited data

Results flagged for a closer look

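Ifit2 differed in sign between the fractions of the 2 constructs, although neither difference passed in the main limma fits. The difference in MexHT mice passed under some alternatives, with and without a block, and that in HT mice under none. In MexHT mice it was lower in OSN than in mCherry-negative cells in 5 of 5 mice (median log2 difference -0.45, nearest to 0 at -0.03), and in HT mice it was higher in OSN in 3 of 3 (median 0.22, nearest to 0 at 0.05). The interaction of construct and fraction was -0.99 for Ifit2 and did not pass in limma (adjusted p 0.165). For 5 named genes of the pathway the interaction passed with a negative sign: Cxcl10 (-2.63), Ifi204 (-2.58), Tap2 (-2.58), Irf8 (-2.39) and Irf5 (-2.31). They were named as the most changed of the pathway genes called in this fit, so that they passed follows from the naming. Of all genes, 5.37% were called lower and 7.05% higher. Irf8 was lost without HT OSN replicate 3 (adjusted p 0.0524) and, with Ifi204 (0.0504), without HT mCherry-negative replicate 2 (0.0733). All 10 macrophage markers had a lower interaction too (median -2.71), and their part was not tested. For Mex3a, the gene that the MexHT construct carries, it was 2.55, a call lost without HT OSN replicate 1 (adjusted p 0.0606) or HT mCherry-negative replicate 2 (0.0568). No library stood apart from its group by Dixon's test in 18 tests, which covered each of the 9 genes in the groups of 5 or 6 libraries. Smaller groups, HT OSN among them, were not tested in this way.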

How the results depend on the processing

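Of 819 values of the 9 genes under alternatives, 765 kept their direction and side of the threshold, 8 lost and 16 gained a call, and 30 changed sign. Ifit1 and Ifit2 kept their calls between MexHT OSN and HT OSN under all alternatives but the Xist covariate. In mCherry-negative cells no alternative gave a call among the 9. None of 588 values of Mex3a and the named pathway genes changed sign, while 45 lost and 2 gained a call. These pathway genes were named as the most changed of those called, and the 9 genes were not. Their lack of sign changes thus cannot be set against the 30 of the 9 genes. It also does not speak for the pathway genes that were not named. The causes of the changes in sign and call were not tested.

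With the replicate block, the pathway count between MexHT OSN and HT OSN was 40. The numbers there are only numbers (deviations correlated by -0.05 to 0.02, 1 of 3 best with its own number). MexHT OSN replicate 6 has no partner in the block by mouse. In HT mice the block by mouse gave 2 of the 9 and 33 pathway genes (4967 of all 17027 genes), in gg8 mice 0 of the 9 (1529 of 16490), and in the interaction 2 of the 9 (2603 of 16785), and it changed no other count by over 1.5 times. In mCherry-negative cells, where same-numbered MexHT and HT libraries come from different mice, a block on the number turned Ifit3 to 0.07, Stat2 to 0.00 and Usp18 to 0.02. With the Xist covariate, MexHT OSN against HT OSN had 0 of the 9 and 1 pathway gene, Oasl2 turned to 0.01 and Irf7 to 0.11. In mCherry-negative cells that covariate turned Ifit3 to 0.45, Stat2 to 0.09 and Usp18 to 0.42.

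In HT mice, median-of-ratios scaling gave 1 of the 9 and turned Isg15 to -0.06, voom turned it to -0.07, and all 4 groups in one fit gave 1 of the 9 and 20 pathway genes. In gg8 mice a pseudocount of 0.1 TPM gave 0 of the 9 and 8 pathway genes, and no filter gave 0 of the 9.

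Leaving out 1 library in turn gave, in HT mice, 0 to 1 of the 9 and 4 to 24 pathway genes (6 without HT OSN replicate 1, 5 without 2, 4 without HT mCherry-negative replicate 1, 24 without 2 and 7 without 3). In gg8 mice it gave 0 to 1 of the 9 and 0 to 21 pathway genes (21 without OSN replicate 1, 0 without any other library), where the lone library left was taken to vary like the other group. The interaction had 20 to 46 pathway genes. Log2 differences that changed sign ran from -0.31 to 0.18 for Irf7 between the OSN groups. In mCherry-negative cells they ran from -0.49 to 0.02 for Ifit3, -0.20 to 0.69 for Oasl2, -0.11 to 0.05 for Stat2 and -0.38 to 0.05 for Usp18. In HT mice they ran from -0.38 to 0.49 for Ifit3, -0.21 to 0.14 for Isg15, -0.24 to 1.34 for Bst2 and -0.03 to 0.40 for Usp18. In gg8 mice they ran from -3.13 to 1.46 for Ifit1, -0.06 to 0.21 for Ifit3 and -0.30 to 1.57 for Oasl2, and in the interaction from -0.40 to 0.22 for Ifit1. Isg15, Bst2 and Ifit3 had from 2 to 110 counts in a library, which limits what can be seen of them.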
